A study of Mus musculus with 109 samples.

Results

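The 10 genes described here are Clcf1, Ptx3, Ptgs2, Sphk1, Tgm1, S100a10, Cd109, Emp1, Tm4sf1 and Slc10a6, which are used as markers of A2 reactive astrocytes. They were taken by name from that marker list, and all 10 were found among the 37315 genes of the deposited table, which covers 109 mouse retinas. RNA of the whole retina was sequenced after an injection into the vitreous of the cytokines TNF, IL1A or both (IL1A+TNF), and the other eye of most mice received the carrier, PBS. All mice were 2 to 4 months old by the series description, and wild type (WT) means C57BL/6J. At day 2, the first batch of the labels held WT retinas given PBS (n = 31), TNF (n = 8), IL1A (n = 9) or IL1A+TNF (n = 10). The same batch held WT retinas given PBS or TNF at day 14 (n = 7 and 6; the 7 PBS retinas came from 6 mice) and at day 35 (n = 6 and 9). The second batch held day 2 retinas only, from WT mice given PBS (n = 5) or IL1A+TNF (n = 6) and from mice of a germline Sarm1-/- line, deficient in the axon degeneration enzyme SARM1, given PBS (n = 6) or IL1A+TNF (n = 6). Females and males were in every group, and 45 of the 64 mice gave both eyes. Between 30014757 and 79064488 read pairs were counted per retina.

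Astrocytes change their expression after injury, and the terms A1 and A2 come from profiles of mouse brain astrocytes after endotoxin and after ischaemia. The A1 genes have been tied to a neurotoxic state that IL1A, TNF and C1q released by microglia can bring about in culture, and the A2 genes to a state held to be protective. In the retina, astrocytes line the nerve fibre layer next to the retinal ganglion cells (RGCs), and Müller glia span the whole depth of the tissue. None of the 10 genes belongs to astrocytes alone: Ptgs2, Ptx3 and Emp1, for example, are also made by endothelial, epithelial and infiltrating immune cells. In whole retinas, more cells of a type and more RNA per cell cannot be told apart.

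Gene positions follow the mouse assembly GRCm38 (mm10), with GENCODE M21 models. Clcf1 (ENSMUSG00000040663) lies at chr19:4214238-4223490 on the plus strand and overlaps another protein-coding gene model of the same strand, so that its counts are uncertain to the extent that reads could be assigned to either. Ptx3 (ENSMUSG00000027832), at chr3:66219910-66225805, overlaps Veph1, a gene of the opposite strand. Ptgs2 (ENSMUSG00000032487) lies at chr1:150100031-150108227, S100a10 (ENSMUSG00000041959) at chr3:93555080-93564643 and Emp1 (ENSMUSG00000030208) at chr6:135362545-135383173, with no overlapping gene model. Tm4sf1 (ENSMUSG00000027800) lies at chr3:57285611-57301988 on the minus strand. Sphk1 (ENSMUSG00000061878, chr11:116530925-116536674), Tgm1 (ENSMUSG00000022218, chr14:55700009-55713926, minus strand), Cd109 (ENSMUSG00000046186, chr9:78615546-78716253) and Slc10a6 (ENSMUSG00000029321, chr5:103605711-103629403, minus strand) each overlap a noncoding gene model of the opposite strand. The strand setting of the counting is not given in the sources used here, so reads of overlapping genes on opposite strands may not be separated.

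Promoter sequence from RefSeq (GRCm38.p6) was at hand for 7 of the 10 genes. Clcf1, S100a10 and Cd109 had no entry. The 250 bases before a transcription start are shown for Emp1, Sphk1 and Tgm1, since these 3 genes hold matches to motifs of injury and cytokine signalling and are among those described most closely below. Capitals mark the matches to the AP-1 heptamer TGANTCA and to the interferon-gamma-activated site TTCNNNGAA, the motif bound by STAT factors, on either strand, and the last base lies next to the start.
Emp1, chr6:135362681-135362930, plus strand: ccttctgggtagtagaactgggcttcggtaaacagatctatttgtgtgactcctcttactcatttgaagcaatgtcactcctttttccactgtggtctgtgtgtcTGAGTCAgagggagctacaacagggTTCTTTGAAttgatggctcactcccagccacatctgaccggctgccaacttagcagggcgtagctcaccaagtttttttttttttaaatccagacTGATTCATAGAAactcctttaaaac
Sphk1, chr11:116531587-116531836, plus strand: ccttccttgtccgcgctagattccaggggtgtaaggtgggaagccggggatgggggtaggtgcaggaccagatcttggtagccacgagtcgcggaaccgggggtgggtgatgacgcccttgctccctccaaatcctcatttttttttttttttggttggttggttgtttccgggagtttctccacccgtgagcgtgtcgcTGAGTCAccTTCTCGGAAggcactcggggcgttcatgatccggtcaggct
Tgm1, chr14:55713493-55713742, minus strand: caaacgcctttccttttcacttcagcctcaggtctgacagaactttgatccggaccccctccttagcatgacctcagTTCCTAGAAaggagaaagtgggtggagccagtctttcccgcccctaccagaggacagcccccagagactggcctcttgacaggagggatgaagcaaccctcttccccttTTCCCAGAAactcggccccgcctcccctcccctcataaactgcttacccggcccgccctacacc
Emp1 held AP-1 matches at -145 and -25 and STAT site matches at -120 and -22, the second pair overlapping. Sphk1 held an AP-1 match at -50 and a STAT site match at -41, which were also in a second, overlapping entry. Tgm1 held STAT site matches at -173 and -64. A stretch of the NF-kB kind (GGG, 5 bases of any kind, then CC, on either strand) lay in entries of Tgm1, Ptgs2, Tm4sf1 and Sphk1, and TATAAA lay in a further Sphk1 entry, at -31. Among 32851 mouse promoters, 6.75% held the AP-1 heptamer, 7.02% the STAT site, 45.8% the NF-kB kind stretch and 12.4% TATAAA. The 7 genes had 13 windows, some of them overlapping, of which 3 held the AP-1 heptamer, 4 the STAT site, 4 the NF-kB kind stretch and 1 TATAAA. No match to these 4 motifs was found in the windows of Ptx3 and Slc10a6, nor in further entries of Emp1, Tgm1 and Sphk1. A match describes the letters only, and binding was not measured.

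Levels are given in CPM, the read pairs of a gene divided by the total of its retina on the usual scale. Fold changes are on the log2 scale with their standard error (SE), from limma with sex as a term and the 2 eyes of a mouse treated as correlated, and a gene was called where its Benjamini-Hochberg adjusted p over all genes tested was under 0.05. The labels name each retina as a separate sample, and the 2 eyes of a mouse count as 2 retinas. Per kilobase of exon, the day 2 PBS levels of WT retinas reached from 0.0524 CPM per kb for Slc10a6 to 14.3 for S100a10, with Cd109 at 0.112, Ptgs2 at 0.606, Ptx3 at 0.795, Emp1 at 0.942, Sphk1 at 1.12, Tm4sf1 at 1.27, Clcf1 at 1.41 and Tgm1 at 2.49. The retinas of the PBS group were least alike for Ptgs2, Slc10a6 and Ptx3, whose SD was 109%, 102% and 97.3% of the mean. They were most alike for Sphk1, at 13.5%, and S100a10, at 22.2%. S100a10 was thus the most abundant A2 gene and Slc10a6 was near the limit of counting, with 0 to 37 read pairs per retina and none in 23 of the 109. In those 23 retinas a count of 0 allows a level of up to 0.0729 to 0.10 CPM, depending on the retina's total, which covers counting error only.

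To determine which cytokine changed the A2 genes, WT retinas of day 2 were compared with PBS. All 10 genes rose after IL1A+TNF (25% of all 19548 genes tested rose), 7 rose after IL1A (12% of all genes) and none changed after TNF (0.491% of all genes changed). The median log2 change of the 10 genes was 0.92 after IL1A+TNF, 0.66 after IL1A and -0.07 after TNF, beside all-gene medians of -0.02, -0.01 and 0.00. With mouse as a fixed factor, which takes differences within mice only, 7 of the 9 genes then tested were called after IL1A+TNF and 3 after IL1A. All 3 comparisons share the 31 PBS retinas. After TNF, 1 of the 10 genes, Cd109, had an unadjusted p under 0.05, and edgeR's quasi-likelihood test and DESeq2 called none.

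**Figure D1:**
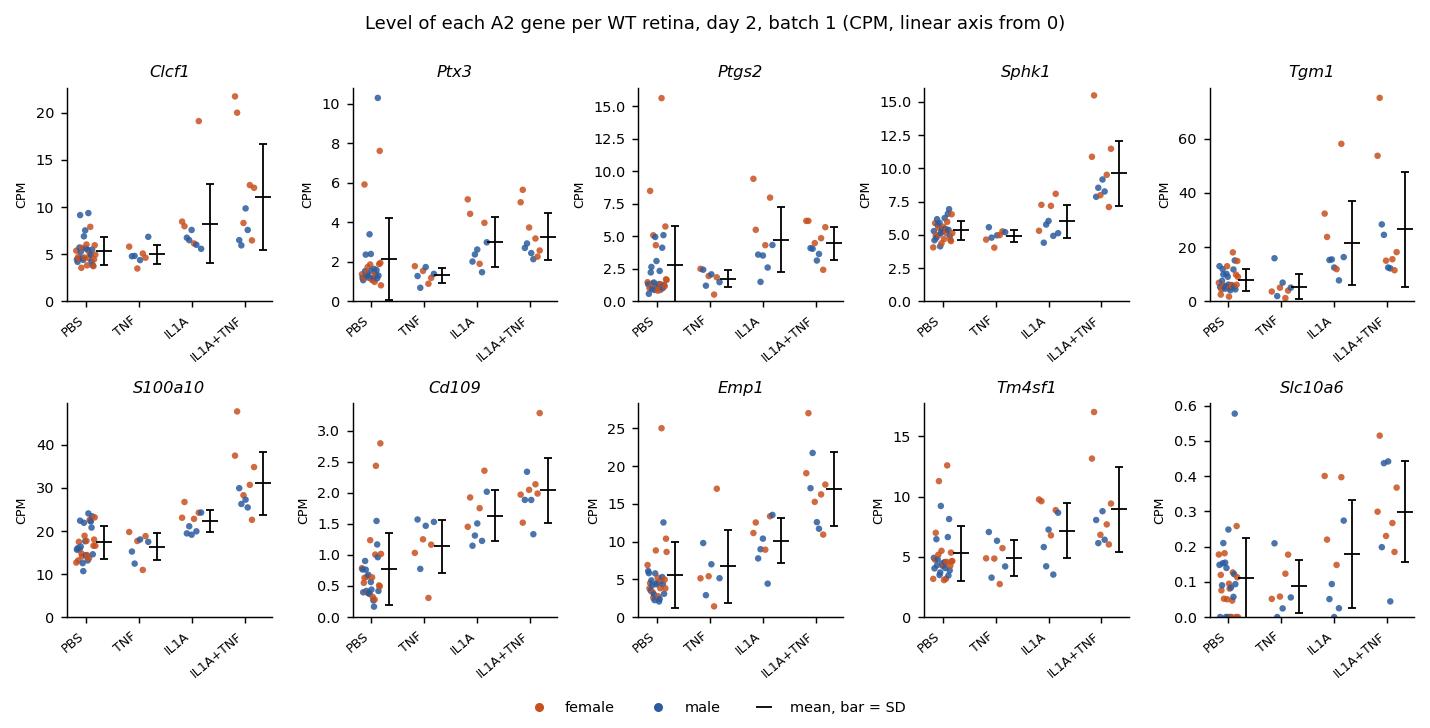
Level of each A2 gene in every WT retina of day 2, first batch, in CPM on a linear axis from 0, by treatment, with females in orange and males in blue; the bar is the mean ± SD, cut at 0. Retinas given IL1A+TNF do not overlap with the PBS retinas for Sphk1, and for Clcf1 and Tgm1 5 of 10 lie above every PBS retina.

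Clcf1 encodes a secreted cytokine of the interleukin 6 family that signals through gp130 and the CNTF receptor. It ranged from 3.56 to 9.37 CPM (median 4.95) in the 31 PBS retinas, from 3.49 to 6.85 (median 4.80) after TNF, from 5.58 to 19.1 (median 6.75) after IL1A and from 5.94 to 21.7 (median 9.09) after IL1A+TNF. Thus 5 of 10 IL1A+TNF retinas lay above every PBS retina, and all 10 lay above the PBS mean. Clcf1 averaged 5.36 ± 1.46 CPM (SD) with PBS and 11.1 ± 5.64 with IL1A+TNF, a log2 change of 0.85 (SE 0.14, adjusted p = 6.63e-07). After IL1A the change was 0.52 (SE 0.16, adjusted p = 0.0114), with 9 of 9 retinas above the PBS mean. That call rested on IL1A replicate 8, the retina at 19.1 CPM: without it the Clcf1 change was 0.37 (adjusted p = 0.108), and with mouse as a fixed factor the adjusted p was 0.254. IL1A and IL1A+TNF did not differ by the test for Clcf1 (0.33, SE 0.18, adjusted p = 0.25).

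Ptx3 encodes a secreted pentraxin that binds microbes and complement. Its level was 0.813 to 10.3 CPM (median 1.40) with PBS, 0.689 to 1.78 (median 1.34) with TNF, 1.48 to 5.16 (median 2.62) with IL1A and 2.13 to 5.64 (median 2.82) with IL1A+TNF. No IL1A+TNF retina exceeded the highest PBS retina, although all 10 exceeded the PBS mean of 2.13 ± 2.08 CPM. The log2 change was 0.75 (SE 0.22, adjusted p = 0.00272) after IL1A+TNF and 0.67 (SE 0.23, adjusted p = 0.0315) after IL1A, with 6 of 9 IL1A retinas above the PBS mean. Both Ptx3 calls were lost with edgeR's quasi-likelihood test (adjusted p = 0.141 and 0.34) and with mouse as a fixed factor, where the changes themselves were 0.07 and 0.18 (adjusted p = 0.875 and 0.861). The Ptx3 call after IL1A was also lost without IL1A replicate 1, 2 or 8 (adjusted p = 0.123, 0.0913 and 0.0816). The highest PBS values of Ptx3, 10.3, 7.61 and 5.91 CPM, came from replicates 26, 29 and 5, whose summed neutrophil markers were 56.9, 33.7 and 82.0 CPM beside a PBS median of 8.18; the part of these cells in the Ptx3 levels was not tested.

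Ptgs2 encodes cyclooxygenase 2, the inducible enzyme that opens prostaglandin synthesis. It lay between 0.582 and 15.6 CPM (median 1.45) with PBS, 0.523 and 2.50 (median 1.90) with TNF, 1.498 and 9.41 (median 4.32) with IL1A and 2.43 and 6.18 (median 4.28) with IL1A+TNF. The medians of the 2 groups with IL1A were nearly equal, and the PBS range enclosed both. The log2 change of Ptgs2 was 1.00 (SE 0.27, adjusted p = 0.00153) after IL1A+TNF, with 9 of 10 retinas above the PBS mean, and 1.11 (SE 0.29, adjusted p = 0.0027) after IL1A, with 7 of 9. As for Ptx3, both Ptgs2 calls were lost with edgeR's test (adjusted p = 0.131 and 0.122), with DESeq2 (adjusted p = 0.141 and 0.142) and with mouse as a fixed factor (0.58 and 0.79, adjusted p = 0.231 and 0.30).

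Sphk1 phosphorylates sphingosine to the signalling lipid sphingosine 1-phosphate. It ranged from 4.06 to 6.93 CPM (median 5.28) with PBS, from 4.04 to 5.57 (median 4.97) with TNF, from 4.41 to 8.08 (median 5.78) with IL1A and from 7.09 to 15.5 (median 8.85) with IL1A+TNF. It was the only A2 gene whose IL1A+TNF retinas all lay above all PBS retinas, and how many of all genes did so was not counted. Sphk1 rose by 0.74 (SE 0.07, adjusted p = 4.42e-13) after IL1A+TNF, from 5.34 ± 0.718 to 9.62 ± 2.47 CPM, whereas its change after IL1A was 0.12 (SE 0.09, adjusted p = 0.37) and after TNF -0.09 (SE 0.10, adjusted p = 0.903).

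Tgm1 encodes a transglutaminase, an enzyme that links proteins to each other and is best known from the skin barrier. It ranged from 1.77 to 18.1 CPM (median 6.13) with PBS, from 1.23 to 15.9 (median 4.52) with TNF, from 7.75 to 58.1 (median 15.5) with IL1A and from 11.5 to 75.0 (median 16.9) with IL1A+TNF. With IL1A+TNF, 5 of 10 retinas exceeded every PBS retina. The log2 change of Tgm1 was 1.52 (SE 0.25, adjusted p = 1.07e-06) after IL1A+TNF and 1.34 (SE 0.27, adjusted p = 0.000166) after IL1A, from a PBS mean of 7.89 ± 3.98 CPM to 26.7 ± 21.2 and 21.5 ± 15.5. Replicates 1 and 2 of IL1A+TNF, at 53.7 and 75.0 CPM of Tgm1, also held the highest Clcf1 values, 21.7 and 20.01 CPM, and the highest summed neutrophil markers of their group, 309 and 485 CPM beside a median of 70.1. What these cells added to the Tgm1 and Clcf1 levels was not tested. With either of these retinas left out, all 10 genes were still called after IL1A+TNF.

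S100a10 encodes p11, a small partner of annexin A2 at the membrane. Its lowest, median and highest values were 10.7, 16.6 and 24.1 CPM with PBS, 10.95, 17.6 and 19.8 with TNF, 19.1, 22.8 and 26.7 with IL1A and 22.6, 29.1 and 47.8 with IL1A+TNF. Of the IL1A retinas 3 of 9, and of the IL1A+TNF retinas 9 of 10, lay above every PBS retina. S100a10 rose by 0.75 (SE 0.09, adjusted p = 2.68e-10) after IL1A+TNF, from 17.3 ± 3.85 to 31.1 ± 7.34 CPM, and by 0.34 (SE 0.10, adjusted p = 0.00905) after IL1A, to 22.3 ± 2.59 CPM. The IL1A call was lost with mouse as a fixed factor (0.22, adjusted p = 0.434).

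Cd109 encodes a membrane-anchored protein of the alpha-2-macroglobulin family that binds TGF-beta. It was 0.167 to 2.79 CPM (median 0.631) with PBS, 0.308 to 1.57 (median 1.21) with TNF, 1.15 to 2.35 (median 1.51) with IL1A and 1.33 to 3.28 (median 1.98) with IL1A+TNF. Every retina with IL1A or IL1A+TNF lay above the PBS mean of 0.773 ± 0.586 CPM, and the ranges overlapped. Cd109 rose by 1.53 (SE 0.20, adjusted p = 2.3e-09) after IL1A+TNF and by 1.28 (SE 0.22, adjusted p = 6.01e-06) after IL1A. After TNF, 7 of 8 retinas lay above the PBS mean, at 1.14 ± 0.43 CPM, and the Cd109 change of 0.69 (SE 0.26) had an unadjusted p of 0.00909 and an adjusted p of 0.362. Without TNF replicate 6, the Cd109 change was 0.92 and was called (adjusted p = 0.0179).

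Emp1 and Tm4sf1 encode small membrane proteins with several membrane spans, of the PMP22 family and the transmembrane 4 L6 family. Emp1 ranged from 2.07 to 25.04 CPM (median 4.49) with PBS, from 1.42 to 17.01 (median 5.28) with TNF, from 4.43 to 13.5 (median 10.4) with IL1A and from 10.9 to 27.03 (median 16.7) with IL1A+TNF. All but 1 of the PBS retinas lay below the IL1A+TNF median. Emp1 rose by 1.66 (SE 0.19, adjusted p = 1.28e-10) after IL1A+TNF and by 0.99 (SE 0.23, adjusted p = 0.00074) after IL1A. Tm4sf1 ranged from 3.07 to 12.6 CPM (median 4.58) with PBS, from 2.74 to 7.06 (median 4.87) with TNF, from 3.53 to 9.76 (median 7.26) with IL1A and from 6.03 to 17.03 (median 7.88) with IL1A+TNF. It had 2 of 10 IL1A+TNF retinas above every PBS retina and rose by 0.67 (SE 0.15, adjusted p = 0.000166), while its change after IL1A was 0.43 (SE 0.17, adjusted p = 0.0607). The IL1A change of Tm4sf1 was called without IL1A replicate 4 or 7 or PBS replicate 10, 13, 23 or 26 (adjusted p = 0.0175 to 0.0395).

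Slc10a6 encodes a sodium-dependent carrier of sulphated steroids. It was the scarcest of the genes: 0 to 0.578 CPM (median 0.0933) with PBS, 0 to 0.209 (median 0.0569) with TNF, 0 to 0.401 (median 0.148) with IL1A and 0.0444 to 0.515 (median 0.283) with IL1A+TNF. It was at 0 in 7 of the 31 PBS retinas and in none of the 10 with IL1A+TNF, and the ranges overlapped. The fitted log2 change of Slc10a6 was 1.63 (SE 0.40, adjusted p = 0.000547) after IL1A+TNF and 0.64 (SE 0.50, adjusted p = 0.415) after IL1A. At a few read pairs per retina these values carry wide errors.

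**Figure D2:**
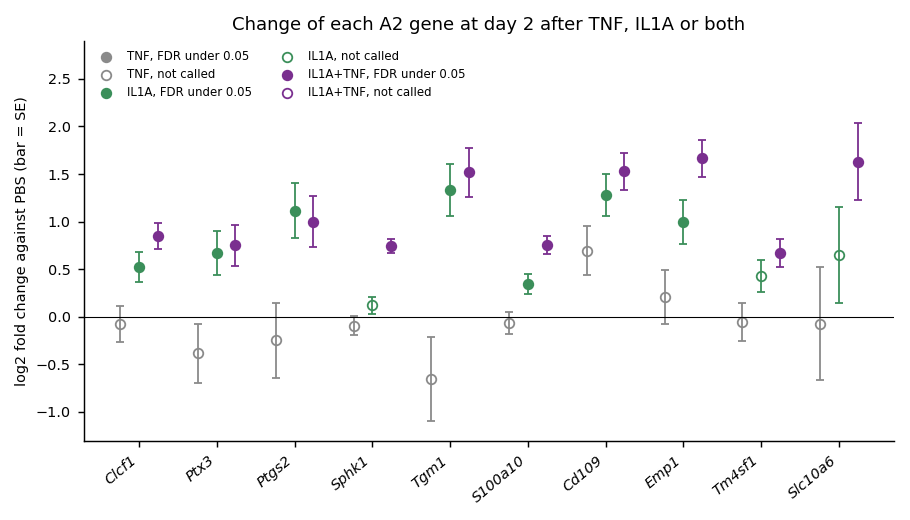
Log2 fold change against PBS of each A2 gene at day 2 after TNF (grey), IL1A (green) and IL1A+TNF (purple), WT retinas of the first batch, with bars for the SE; filled points have an adjusted p under 0.05. All 10 purple points and 7 green points are filled and no grey point is; Sphk1 stands at 0.12 after IL1A and 0.74 after IL1A+TNF.

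Next, the cytokine groups were compared with each other. Mean levels were lowest with TNF, then PBS, IL1A and IL1A+TNF, for Clcf1, Ptx3, Sphk1, Tgm1, S100a10, Tm4sf1 and Slc10a6. Cd109 and Emp1 had PBS below TNF, and Ptgs2 had IL1A+TNF (4.47 ± 1.27 CPM) below IL1A (4.75 ± 2.53 CPM). TNF and PBS, the neighbours at the low end, differed by the test for no A2 gene. At the high end, IL1A+TNF exceeded IL1A for 2 of the 10 genes (5.56% of all genes), Sphk1 by 0.62 (SE 0.10, adjusted p = 2.91e-05) and S100a10 by 0.41 (SE 0.12, adjusted p = 0.0153), each with 10 of 10 retinas above the IL1A mean. Without the retinas rich in lens or surface epithelium markers (described below), S100a10 lost this call (adjusted p = 0.0993). Emp1 was close to the threshold, with a difference of 0.67 (SE 0.24, adjusted p = 0.058) and 10 of 10 retinas above the IL1A mean, and it was called without those retinas (adjusted p = 0.0428). IL1A+TNF exceeded TNF for all 10 genes (20% of all genes), with adjusted p from 1.16e-08 for Sphk1 to 0.025 for Slc10a6 and with no overlap for Ptx3, Sphk1 and S100a10. The share of all genes without overlap was not counted. The Cd109 call there was lost with edgeR's test (adjusted p = 0.0789) and the Slc10a6 call without the marker-rich retinas (adjusted p = 0.0717).

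IL1A exceeded TNF for 4 genes (5.35% of all genes), namely Ptx3 (1.05, SE 0.35, adjusted p = 0.045), Ptgs2 (1.36, SE 0.43, adjusted p = 0.0358), Tgm1 (1.99, SE 0.47, adjusted p = 0.00371) and S100a10 (0.41, SE 0.14, adjusted p = 0.049). Only the Tgm1 call also held without the sex term. Without the marker-rich retinas Ptx3 lost this call (adjusted p = 0.0744) and Emp1 gained it (1.07 beside 0.78, adjusted p = 0.0209). Whether the response to both cytokines exceeded the sum of the responses to each was tested on the log2 scale, and 1 of the 10 genes passed (1.74% of all genes exceeded the sum). That gene was Sphk1, by 0.72 (SE 0.14, adjusted p = 0.00239), and S100a10 followed with 0.47 (SE 0.16, adjusted p = 0.0919). Females and males differed for none of the 10 genes (0.363% of all genes differed), with Ptgs2 nearest at 0.45 higher in females (SE 0.23, adjusted p = 0.50). The effects of IL1A+TNF, IL1A and TNF did not differ by sex for any of them in this batch either, a test added after the data had been seen (0%, 0% and 0% of all genes). At an unadjusted p under 0.05 in limma there were 2, 4 and 0 of the 10 genes. The IL1A effect was the larger in females for 9 of the 10, with a median difference of 0.59 and a smallest adjusted p of 0.573.

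The same mice could be compared eye against eye. In 8 mice of the first batch with IL1A+TNF in 1 eye and PBS in the other, Sphk1, Tgm1, S100a10, Cd109, Emp1 and Tm4sf1 were higher in the treated eye of all 8. An exact sign-flip permutation test gave p = 0.00781 for each, the smallest it allows with 8 pairs, and 0.0911 after adjustment over the 70 tests of this kind. Clcf1 and Slc10a6 were higher in 7 of 8 treated eyes, Ptx3 and Ptgs2 in 6 of 8. For Ptx3 the difference between eyes reached from -1.73 to 1.61 on the log2 scale, with a median of 0.69, so the eyes of a mouse moved in both directions. In 7 mice given IL1A, Tgm1, Cd109 and Emp1 were higher in every treated eye (exact permutation p = 0.0156, adjusted 0.122). For neither set of pairs was it counted how many of all genes were higher in every treated eye. In 8 mice given TNF at day 2, Cd109 was higher in 6 treated eyes.

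Other genes of the same pathways give the surroundings of these changes, as counts only. Beside them, 25% of all genes tested rose and 25.5% fell after IL1A+TNF, 12% rose and 9.44% fell after IL1A, and 0.471% rose after TNF. Of 17 genes of prostaglandin synthesis and reception, 8 rose and 3 fell after IL1A+TNF, 6 rose after IL1A and 1 rose after TNF. Ptgs1, the constitutive cyclooxygenase, rose by 2.31 (SE 0.14, adjusted p = 4.93e-20) after IL1A+TNF and Tbxas1, thromboxane synthase, by 2.20 (SE 0.14, adjusted p = 3.26e-19), both more than Ptgs2. Of 15 genes of gp130 cytokine signalling around Clcf1, 7 rose and 3 fell after IL1A+TNF, among them the interleukin 6 receptor Il6ra (2.27) and the feedback inhibitor Socs3 (1.77). Of 17 sphingosine 1-phosphate genes around Sphk1, 10 rose and 4 fell, with Sgpl1, the lyase that degrades the lipid, at 0.73 and the receptor S1pr2 at 1.12. Of 13 S100 and annexin genes tested, 10 rose and 1 fell, with S100a6 at 1.52.

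The remaining lists are to be read beside the same shares of all genes. Of 13 genes tested around TGF-beta and the alpha-2-macroglobulins, the setting of Cd109, 7 rose and 2 fell, with Tgfb1 at 1.55. Of 8 transglutaminase genes tested, 2 rose and 4 fell, and the risers were F13a1 (2.56), a coagulation factor that macrophages carry, and Tgm2 (0.95). Of 9 pentraxin and complement genes tested, 4 rose and 3 fell, with C1qb at 1.43 and C1qa at 1.29. Of the close relatives, of 4 tested PMP22 family genes only Emp3 rose (0.80), of 5 SLC10 genes Slc10a3 (0.67) and Slc10a7 (0.25) rose, and of 2 TM4SF genes Tm4sf19 rose (1.65). After IL1A, the genes that rose and fell numbered 5 and 1 in the gp130 list, 8 and 1 in the sphingosine 1-phosphate list, 9 and 0 in the S100 and annexin list, 4 and 1 around TGF-beta, 2 and 0 among transglutaminases and 3 and 3 in the pentraxin and complement list. Of the relatives, 0 PMP22, 1 SLC10 and 1 TM4SF gene rose after IL1A. None of these lists had more than 1 call after TNF. B3gnt5, a glycosyltransferase of the usual A2 list, rose by 0.61 after IL1A+TNF (adjusted p = 0.000182) and not by the test after IL1A (0.30, adjusted p = 0.169). Cd14, the endotoxin coreceptor of the same list, rose by 1.33 after IL1A+TNF (adjusted p = 1.21e-07) and by 0.98 after IL1A (adjusted p = 0.000942). Of 13 genes of the pan-reactive list, 10 rose after IL1A+TNF and 10 after IL1A, and of 12 A1 genes tested 11 and 7 rose. Neither list had a call after TNF.

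Genes whose log2 CPM followed each A2 gene most closely were ranked over the 58 WT retinas of day 2, first batch, among 15137 genes. These correlations share the treatment groups, the libraries and their depth, and are a description. S100a10 was followed most closely by Tagln2 (r = 0.952), Arhgdia (0.948) and Capns1 (0.946), and Tgm1 by Dhrs1 (0.939), Tnfrsf1a (0.918), a TNF receptor, and Gng12 (0.914). Emp1 was followed by Anxa2 (0.928), Lgals3 (0.925) and Itgb1 (0.923), Clcf1 by genes that included Elovl1 (0.879) and Csf2ra (0.878), and Cd109 by Tgfbr2 (0.879), Stab1 (0.868) and Grn (0.866). For Sphk1 they were Mybbp1a (0.875), 5031439G07Rik (0.873) and Slain2 (0.872). Ptx3 was nearest to the chemokines Cxcl1 (0.842) and Ccl2 (0.837) and to Cd14 (0.825). Ptgs2 and Tm4sf1 were each other's nearest gene (r = 0.831), followed for Ptgs2 by Fosl2 (0.826) and Cxcl1 (0.815) and for Tm4sf1 by Zyx (0.820) and Ppp1r3b (0.798). Slc10a6 had the loosest neighbours, Trib1 (0.676), Myc (0.674) and Cdkn1a (0.666).

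Markers of the cells that the dissected tissue could hold moved with the treatment. At day 2, 5 of 5 tested neutrophil markers rose after IL1A+TNF and 5 of 5 after IL1A, and 0 of 5 changed after TNF. Their summed level was 0.673 to 82.0 CPM with PBS, 0.246 to 16.6 with TNF, 29.4 to 171 with IL1A and 49.7 to 485 with IL1A+TNF, with Ly6g at 3 counts or fewer in every TNF and every IL1A+TNF retina of that batch. Of 6 monocyte markers, 5 rose after IL1A+TNF, where they summed to 243 to 802 CPM beside 15.2 to 135 with PBS, and 5 rose after IL1A (71.9 to 354 CPM). After TNF, 0 of these 6 were called, and they summed to 9.04 to 318 CPM, with a median of 206 beside 51.5 with PBS. Of 5 microglia markers, 3 rose and 1 fell after IL1A+TNF, 4 rose after IL1A and 2 rose after TNF. Microglia sums were 113 to 167, 96.3 to 149 and 54.3 to 134 CPM in these groups, beside 59.6 to 100 with PBS. Endothelial markers rose in 5 of 6 cases after IL1A+TNF, to 341 to 516 CPM from 229 to 425 with PBS, and in 6 of 6 after IL1A (366 to 470 CPM). Of 7 retinal ganglion cell (RGC) markers, 6 fell after IL1A+TNF and 5 after IL1A, with sums of 548 to 664 and 467 to 717 CPM beside 584 to 803 with PBS. Rod markers, given as sums only, had a median of 23508 CPM with IL1A+TNF, 34807 with IL1A and 41403 with PBS. Of 6 astrocyte markers, 3 rose and 2 fell after IL1A+TNF, and they summed to 859 to 1070 CPM beside 722 to 930 with PBS. Of 5 surface epithelium markers tested, 4 fell after IL1A+TNF, and the 6 in the list summed to 0.723 to 3.33 CPM beside 1.03 to 37.8 with PBS. Lens markers passed 500 CPM or surface epithelium markers passed 10 CPM in 33 of the 109 retinas, and 10 of the 31 PBS retinas of day 2 were among them. Leaving those 33 out was an alternative added after the data had been seen, and all 10 genes were still called after IL1A+TNF. After IL1A, 5 genes were then called in place of 7, with Clcf1 at 0.51 (adjusted p = 0.0642) and Ptx3 at 0.56 (adjusted p = 0.134) no longer called. The part of any of these cells in the A2 gene changes was not tested.

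Emp1 levels were set beside these marker sums. Among the PBS retinas of day 2, first batch, the highest Emp1 value was 25.04 CPM in the 10 retinas rich in lens or surface epithelium markers and 10.4 CPM in the other 21, which averaged 4.09 ± 1.79 CPM. At day 14, Emp1 reached 31.3 CPM in PBS replicate 7 and 31.7 and 18.8 CPM in TNF replicates 1 and 5, whose surface epithelium markers summed to 19.5, 22.8 and 28.4 CPM. The next highest PBS value of day 14 was 9.84 CPM, in the other PBS retina rich in lens or surface epithelium markers. In the day 14 retinas not rich in these markers, Emp1 reached 3.62 CPM with PBS and 4.53 CPM with TNF. In the second batch, PBS replicate 2 of WT held 33.4 CPM of Emp1 and 178 CPM of surface epithelium markers.

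**Figure D3:**
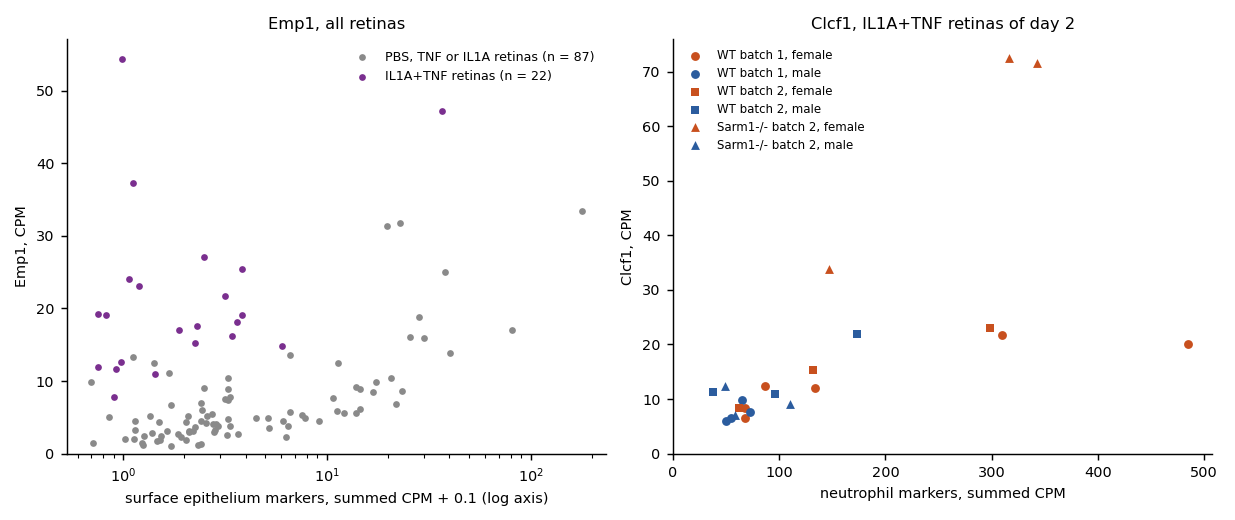
Left, Emp1 in CPM against the summed CPM of 6 surface epithelium markers plus 0.1 (log axis) in all 109 retinas, with the 22 IL1A+TNF retinas in purple and the other 87 in grey; right, Clcf1 in CPM against the summed CPM of 6 neutrophil markers in the 22 IL1A+TNF retinas of day 2, by genotype, batch and sex. The highest grey Emp1 points, up to 33.4 CPM, lie at high epithelium marker sums, and the 3 highest Clcf1 points, 33.8 to 72.6 CPM, are Sarm1-/- females.

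To ask whether TNF alone acted later, TNF and PBS retinas were compared at day 14 and day 35. No A2 gene changed at day 14 (0% of all 18023 genes tested, smallest adjusted p of the 9 genes tested 0.903) or at day 35 (0% of all 17821 genes, smallest adjusted p 0.879). At an unadjusted p under 0.05 there were 0 and 1 of the 9, the 1 being Emp1 at day 35, and neither edgeR nor DESeq2 called any. Slc10a6 was too scarce to be tested at either day. At day 35, Emp1 was 2.31 to 15.9 CPM (median 5.85) with PBS and 1.05 to 8.51 (median 1.53) with TNF. It was lower than the PBS mean in 8 of 9 TNF retinas and lower in the TNF eye of all 6 pairs (exact permutation p = 0.0312, the smallest that 6 pairs allow, adjusted 0.168). The Emp1 change was -1.56 (SE 0.43), with an unadjusted p of 0.00173 and an adjusted p of 0.879. Of the 6 PBS retinas of day 35, 3 were rich in lens or surface epithelium markers and held up to 15.9 CPM of Emp1, beside up to 4.01 CPM in the other 3 and 1 such retina among the 9 with TNF. The effect of TNF did not differ from day 2 for any A2 gene at day 14 (0% of all genes) or day 35 (0% of all genes).

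In CPM, Clcf1 was 4.11 to 5.04 (median 4.62) with PBS and 3.35 to 6.16 (median 5.04) with TNF at day 14, and 2.93 to 5.18 (median 4) with PBS and 3.25 to 5.4 (median 4.26) with TNF at day 35. Ptx3 was 0.586 to 1.33 (median 1.02) with PBS and 0.885 to 1.56 (median 1.37) with TNF at day 14, and 0.85 to 1.53 (median 1.1) with PBS and 0.667 to 1.33 (median 0.874) with TNF at day 35. Sphk1, the steadiest of the genes at day 2, was 4.21 to 5.82 (median 4.99) with PBS and 4.22 to 5.12 (median 4.62) with TNF at day 14, and 3.46 to 5.86 (median 4.31) with PBS and 3.69 to 5.28 (median 4.47) with TNF at day 35. For these 3 genes the TNF and PBS ranges overlapped at both days. Ptgs2 was 0.366 to 0.98 (median 0.823) with PBS and 0.486 to 1.19 (median 0.746) with TNF at day 14, and 0.453 to 1.01 (median 0.55) with PBS and 0.221 to 1.83 (median 0.7) with TNF at day 35. Cd109 was 0.15 to 0.466 (median 0.346) with PBS and 0.237 to 1.41 (median 0.317) with TNF at day 14, and 0.0523 to 0.543 (median 0.206) with PBS and 0.175 to 0.421 (median 0.296) with TNF at day 35. Tm4sf1 was 1.5 to 3.75 (median 3.06) with PBS and 2.09 to 4.95 (median 3.15) with TNF at day 14, and 1.28 to 3.45 (median 2.93) with PBS and 2.03 to 3.55 (median 3.04) with TNF at day 35. The TNF ranges of these 3 also overlapped those of PBS. Slc10a6 was 0 to 0.136 (median 0.0549) with PBS and 0 to 0.217 (median 0.0531) with TNF at day 14, and 0 to 0.141 (median 0.0133) with PBS and 0 to 0.054 (median 0) with TNF at day 35, with 3 of 7, 2 of 6, 3 of 6 and 6 of 9 retinas at 0.

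PBS retinas themselves differed between the days. Against day 2, 3 of the 9 A2 genes tested were lower at day 14 (10.2% of all genes were lower) and 5 were lower at day 35 (17.3% of all genes). S100a10 went from 10.7 to 24.1 CPM (median 16.6) at day 2 to 8.19 to 12.2 (median 11.7) at day 14 and 8.02 to 11.7 (median 9.02) at day 35. Its log2 differences from day 2 were -0.67 (SE 0.14, adjusted p = 0.000415) and -0.79 (SE 0.15, adjusted p = 3.61e-05). Tgm1 was 0.873 to 11.7 CPM (median 3.57) at day 14 and 0.159 to 2.29 (median 0.840) at day 35, with differences of -1.15 (SE 0.41, adjusted p = 0.0412) and -3.26 (SE 0.74, adjusted p = 0.000604). The day 14 call of Tgm1 was lost with edgeR's test (adjusted p = 0.0835). Tm4sf1 was lower at both days, by -0.73 (SE 0.23, adjusted p = 0.0217) and -0.87 (SE 0.25, adjusted p = 0.00573), and Ptgs2 (-1.61, SE 0.63, adjusted p = 0.0452) and Cd109 (-1.61, SE 0.50, adjusted p = 0.0101) were called lower at day 35. Ptgs2 and Cd109 were also called at day 14 with edgeR's test (adjusted p = 0.00942 and 0.0248).

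Without the retinas rich in lens or surface epithelium markers, the calls of Ptgs2, Cd109 and Tm4sf1 at day 35 were lost (adjusted p = 0.147, 0.374 and 0.169), and so was the call of Tm4sf1 at day 14 (-0.69, adjusted p = 0.0773). At day 35 the Ptgs2 difference was then -1.75 beside -1.61 with all retinas, that of Cd109 -0.79 beside -1.61 and that of Tm4sf1 -0.62 beside -0.87, with 3 of the 6 PBS retinas of that day left. Days 14 and 35 did not differ for any A2 gene (3.97% of all genes differed), and Tgm1 was nearest, with -2.11 (SE 0.83, adjusted p = 0.139). It was called in that comparison with edgeR's test (adjusted p = 0.0145). Monocyte markers were lower in 4 of 6 cases at day 14 and 5 of 6 at day 35, endothelial markers in 5 of 6 at both days, and fibroblast markers in 2 and 4 of 6. Monocyte markers summed to 11.4 to 26.7 and 5.29 to 9.03 CPM at these days beside 15.2 to 135 at day 2, endothelial markers to 272 to 302 and 174 to 249 beside 229 to 425, and fibroblast markers to 21.1 to 64.3 and 17.2 to 26.2 beside 34.1 to 363. All 5 microglia markers were lower at days 14 and 35 than at day 2, at 43.7 to 52.5 and 32.6 to 40.04 CPM in sum beside 59.6 to 100 CPM. Of the neutrophil markers, Retnlg and Ly6g were at 3 counts or fewer in every PBS retina of days 14 and 35. The time since injection and anything else that differed between the days cannot be told apart, and the part of these cells was not tested.

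**Figure D4:**
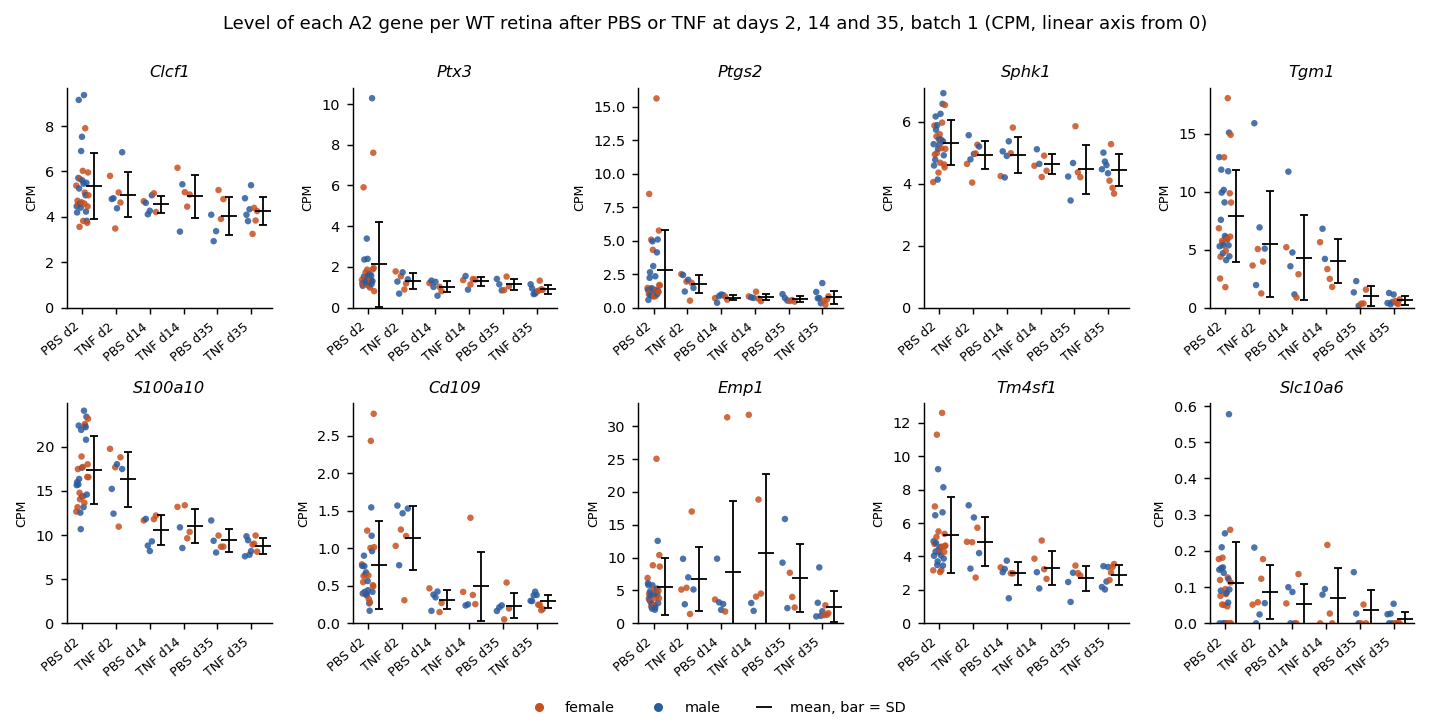
Level of each A2 gene in every WT retina given PBS or TNF at days 2, 14 and 35 (d2, d14, d35), first batch, in CPM on a linear axis from 0, with females in orange and males in blue; the bar is the mean ± SD, cut at 0. PBS and TNF retinas overlap at each day for each gene, and S100a10, Tgm1 and Tm4sf1 are lower at the later days than at day 2.

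The second batch asked whether SARM1 bears on the response to IL1A+TNF. Sarm1 itself averaged 43.4 ± 5.83 CPM in Sarm1-/- and 115 ± 7.89 in WT PBS retinas, and 38.9 ± 7.42 and 101.1 ± 9.43 CPM with IL1A+TNF, so that its RNA was reduced in the Sarm1-/- retinas and not absent. Fits covered both batches, with batch as a term. With PBS, no A2 gene differed between the genotypes (0.0397% of all 20154 genes tested differed, smallest adjusted p of the 10 genes 0.96), none had an unadjusted p under 0.05, and neither edgeR nor DESeq2 called any. IL1A+TNF raised all 10 genes in WT retinas of both batches (28% of all genes rose) and 9 of 10 in Sarm1-/- retinas (21.6% of all genes), the exception being Slc10a6 (0.44, SE 0.54, adjusted p = 0.541). With mouse as a fixed factor, 0 of the 9 genes then tested passed in Sarm1-/- (adjusted p = 0.136 to 0.193), with changes of 0.80 to 2.20 beside 0.68 to 1.89 with the random block, and Ptx3 lost its call in WT (0.55 beside 0.90, adjusted p = 0.0733). All 7 RGC markers fell after IL1A+TNF in Sarm1-/-, with a median log2 change of -1.28 (22.3% of all genes fell). In WT of both batches 5 of 7 fell, with a median of -0.30 (27.3% of all genes fell). The Sarm1-/- sums were 93.7 to 677 CPM with IL1A+TNF beside 658 to 727 with PBS, with the treated females lowest (described below). The part of RGCs in the A2 changes was not tested. In WT retinas of the second batch alone, the 10 changes lay between 0.81 and 1.31, and only those of Tgm1 and S100a10 were called.

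Clcf1 changed most in Sarm1-/- retinas. It was 3.98 to 8.32 CPM (median 6.27) with PBS and 7.01, 9.02, 33.8, 71.5, 72.6 and 12.3 CPM in replicates 1 to 6 with IL1A+TNF, beside 8.31 to 23.1 (median 13.3) in WT with IL1A+TNF and 5.25, 6.02, 6.12, 6.39 and 6.67 in the 5 WT retinas with PBS. The 3 high retinas were the 3 females. The Clcf1 change was 1.89 (SE 0.33, adjusted p = 4.68e-06) in Sarm1-/- and 0.91 (SE 0.20, adjusted p = 0.00011) in WT, and the test of that difference gave 0.98 (SE 0.39, adjusted p = 0.096). None of the 10 genes differed in its response between genotypes (8.72% of all genes did), Clcf1 alone had an unadjusted p under 0.05, and DESeq2 called it (1.30, adjusted p = 0.0225) while edgeR's test called none. Clcf1 passed this test without Sarm1-/- IL1A+TNF replicate 1, 2 or 6 (1.24, 1.17 and 1.09, adjusted p = 0.0117, 0.0256 and 0.0491), the 3 males.

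Between the genotypes with IL1A+TNF, 2 of the 10 genes were higher in Sarm1-/- (4.44% of all genes were higher), Clcf1 by 0.83 (SE 0.25, adjusted p = 0.0175) and Ptx3 by 0.80 (SE 0.28, adjusted p = 0.038). Ptgs2 (0.87, SE 0.32, adjusted p = 0.0534) and Sphk1 (0.41, SE 0.16, adjusted p = 0.0697) lay near the threshold. Within the second batch alone neither call held (Clcf1 0.92, adjusted p = 0.304, and Ptx3 0.67, adjusted p = 0.36). Clcf1 lost the call without Sarm1-/- IL1A+TNF replicate 4 or 5 (0.51 and 0.53, adjusted p = 0.265 and 0.208). Ptx3 lost it without replicate 1, 3, 4 or 5 (adjusted p = 0.157, 0.055, 0.167 and 0.133). Conversely, Ptgs2 was called without replicate 1, 3 or 6 of that group (adjusted p = 0.014, 0.00502 and 0.039) or Sarm1-/- PBS replicate 1 (adjusted p = 0.0449), and Sphk1 without replicate 1, 2 or 6 (adjusted p = 0.00317, 0.00944 and 0.018).

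Levels of the other genes in the second batch followed the same order of PBS below IL1A+TNF in the medians of each genotype. In CPM, Ptx3 was 1.1 to 1.56 (median 1.28) in WT with PBS, 2.42 to 3.86 (median 3.52) in WT with IL1A+TNF, 1.31 to 5.63 (median 1.89) in Sarm1-/- with PBS and 2.6 to 10.7 (median 6.23) in Sarm1-/- with IL1A+TNF. Ptgs2 was 1.38 to 4.23 (median 3.11) in WT with PBS, 3.77 to 13.9 (median 5.86) in WT with IL1A+TNF, 2.83 to 9.16 (median 3.78) in Sarm1-/- with PBS and 4.94 to 34.7 (median 8.52) in Sarm1-/- with IL1A+TNF. Sphk1 was 4.35 to 5.76 (median 4.79) in WT with PBS, 6.2 to 13.7 (median 10.1) in WT with IL1A+TNF, 4.77 to 5.8 (median 5.4) in Sarm1-/- with PBS and 5.56 to 25 (median 11.5) in Sarm1-/- with IL1A+TNF. Of these 9 genes, Ptx3, Sphk1, Tgm1, S100a10 and Tm4sf1 had every WT retina with IL1A+TNF above every WT retina with PBS, and none did so in Sarm1-/-. How many of all genes were separated in this way was not counted. Tgm1 was 4.43 to 16.7 (median 10.2) in WT with PBS, 18.4 to 40.8 (median 24.7) in WT with IL1A+TNF, 5.51 to 15.1 (median 12.2) in Sarm1-/- with PBS and 12.6 to 43.5 (median 25.6) in Sarm1-/- with IL1A+TNF. S100a10 was 13.3 to 19.5 (median 19.2) in WT with PBS, 27.4 to 58.6 (median 36.9) in WT with IL1A+TNF, 13.4 to 28.2 (median 19.6) in Sarm1-/- with PBS and 22.7 to 65.1 (median 40) in Sarm1-/- with IL1A+TNF. Cd109 was 0.77 to 2.15 (median 1.56) in WT with PBS, 1.91 to 4.11 (median 2.85) in WT with IL1A+TNF, 0.646 to 3.37 (median 1.35) in Sarm1-/- with PBS and 0.991 to 7.58 (median 2.28) in Sarm1-/- with IL1A+TNF. The highest value of each of these 9 genes in this batch was that of a Sarm1-/- retina with IL1A+TNF. Emp1 was 5.07 to 33.4 (median 7.39) in WT with PBS, 18.1 to 37.3 (median 21.7) in WT with IL1A+TNF, 4.94 to 16.1 (median 6.3) in Sarm1-/- with PBS and 7.82 to 54.4 (median 19) in Sarm1-/- with IL1A+TNF. Tm4sf1 was 4.71 to 7.91 (median 7.3) in WT with PBS, 8.23 to 18.9 (median 13.1) in WT with IL1A+TNF, 7.48 to 11.8 (median 7.76) in Sarm1-/- with PBS and 7.49 to 32.7 (median 11.8) in Sarm1-/- with IL1A+TNF. Slc10a6 was 0.07 to 0.174 (median 0.099) in WT with PBS, 0.159 to 0.428 (median 0.266) in WT with IL1A+TNF, 0.0838 to 0.453 (median 0.129) in Sarm1-/- with PBS and 0.131 to 0.758 (median 0.186) in Sarm1-/- with IL1A+TNF.

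The other rises in Sarm1-/- retinas were smaller. They were 1.34 for Ptgs2 (SE 0.37, adjusted p = 0.00212), 1.33 for Emp1 (SE 0.34, adjusted p = 0.000877), 1.09 for Ptx3 (SE 0.31, adjusted p = 0.0031), 1.06 for Sphk1 (SE 0.19, adjusted p = 9.47e-06), 0.99 for Tgm1 (SE 0.35, adjusted p = 0.0174), 0.83 for S100a10 (SE 0.17, adjusted p = 7.84e-05), 0.77 for Cd109 (SE 0.31, adjusted p = 0.0379) and 0.68 for Tm4sf1 (SE 0.23, adjusted p = 0.0122). All 6 treated retinas lay above the PBS mean for Clcf1, Ptgs2, Sphk1, Tgm1 and S100a10. For Ptx3 and Emp1 5 of 6 did, and for Cd109 and Tm4sf1 4 of 6. The Cd109 call was lost without Sarm1-/- PBS replicate 2, 3, 5 or 6 or IL1A+TNF replicate 4 or 5 (adjusted p = 0.0641 to 0.249) and with edgeR's test (adjusted p = 0.059). Tgm1 lost its call without PBS replicate 3 or IL1A+TNF replicate 3 or 4 (adjusted p = 0.076, 0.0568 and 0.064), and Tm4sf1 without IL1A+TNF replicate 4 or 5 (adjusted p = 0.0948 and 0.114). Without the retinas rich in lens or surface epithelium markers, the calls of Ptgs2, Cd109 and Tm4sf1 were lost (adjusted p = 0.056, 0.132 and 0.0769). In the 6 Sarm1-/- mice, Sphk1 was the only A2 gene higher in every treated eye (exact permutation p = 0.0312, adjusted 0.168). In the 5 WT pairs of this batch, 8 of the A2 genes were higher in every treated eye. The exact permutation p was 0.0625 for each, the smallest that 5 pairs allow, and 0.182 adjusted. The share of all genes higher in every treated eye was not counted.

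**Figure D5:**
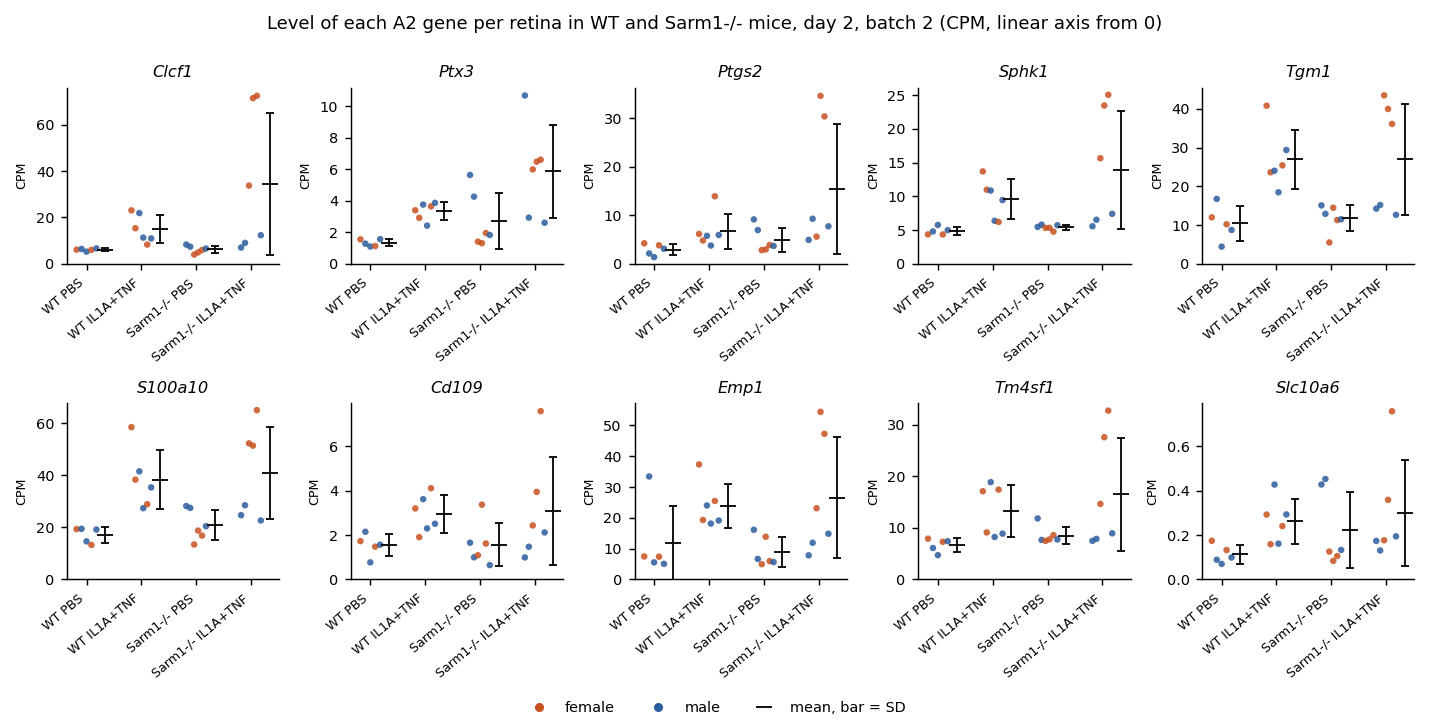
Level of each A2 gene in every retina of the second batch, day 2, WT and Sarm1-/- given PBS or IL1A+TNF, in CPM on a linear axis from 0, with females in orange and males in blue; the bar is the mean ± SD, cut at 0. With IL1A+TNF the Sarm1-/- females lie at 33.8 to 72.6 CPM of Clcf1 and the males at 7.01 to 12.3, while WT retinas lie at 8.31 to 23.1.

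The separation of Sarm1-/- retinas by sex was tested after it had been seen, with 3 females and 3 males per treatment. The effect of IL1A+TNF was larger in females for 9 of the 10 genes (16.5% of all 20796 genes tested had a larger effect in females), by 3.16 (SE 0.45, adjusted p = 3.39e-08) for Clcf1, 1.78 (SE 0.26, adjusted p = 7.79e-08) for Sphk1 and 1.72 (SE 0.28, adjusted p = 7.95e-07) for S100a10, while Cd109 did not pass (0.64, SE 0.58, adjusted p = 0.432). In WT retinas of both batches no A2 gene passed (0% of all genes), and Clcf1 stood at 0.49 (SE 0.26, unadjusted p = 0.0639 in limma). Sphk1 was 15.6, 23.5 and 25.04 CPM in the Sarm1-/- females with IL1A+TNF and 5.56, 6.53 and 7.40 CPM in the males, without overlap. S100a10 was 52.3, 51.5 and 65.1 CPM in these females against 24.7, 28.5 and 22.7 CPM in the males. The share of all genes that separated the 3 females from the 3 males was not counted. Ptx3, among the 9, overlapped with IL1A+TNF, at 5.99 to 6.60 CPM in the females and 2.60 to 10.7 in the males. With PBS its mean was 1.55 CPM in the females and 3.91 in the males. Other cell markers separated the same way: neutrophil markers summed to 146, 343 and 316 CPM in the females and 58.1, 110 and 49.3 CPM in the males, and RGC markers to 324, 112 and 93.7 CPM in the females and 677, 655 and 594 CPM in the males. Female replicate 5 also held 4476 CPM of lens markers. Sex and what else set these 6 mice apart cannot be told apart, and the part of these cells was not tested.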

How the data were processed

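Retinas of WT and Sarm1-/- mice were dissected whole, and their polyA RNA was sequenced as read pairs. Alignment by the authors used STAR 2.7.9a and mm10, and featureCounts (Subread 2.0.1) gave the deposited raw counts per gene, which are whole numbers without normalization and were used as they are. The annotation release and the strand setting are not given in the sources used here, and gene positions are from GENCODE M21. Every column had a sample, and group, sex, eye and batch come from the labels. The age is from the series description. Totals were 30014757 to 79064488 (median 39374202) read pairs per retina.

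Printed CPM are counts divided by the retina's total. Fold changes are from limma 3.58.1 (voom, with TMM factors from edgeR 4.0.16, in R 4.3.3) with sex as a term and the mouse as a random block (duplicateCorrelation, 2 rounds). Standard errors were taken from each gene's own weights. Genes passed edgeR's expression filter (minimum count 10, minimum total 15), and p-values were adjusted by Benjamini-Hochberg over all genes tested, with a threshold of 0.05. Day 2, day 14, day 35, PBS retinas over days, and IL1A+TNF by genotype (both batches, batch as a term) were fitted separately (PBS over days without the block), and the TNF effect over days in a joint fit. The estimated correlation within mice was 0.0515, 0.284 and 0.0794 at days 2, 14 and 35, 0.00525 by genotype and 0.0884 in the joint fit. Eyes are paired because they come from the same mouse: over 45 mice, the deviations of both eyes from their group means correlated with a median of 0.214, above 0.1 in 29. No retinas of a group agreed within counting noise.

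Alternatives were a filter of 1 CPM, no filter, DESeq2 1.42.0 size factors, edgeR's quasi-likelihood test, the DESeq2 Wald test, no block, mouse as a fixed factor, no sex term, all of batch 1 fitted jointly, only batch 2, and single retinas of day 2 left out (the treated ones of batch 1 for the cytokine comparisons, and the WT PBS and Sarm1-/- ones of batch 2 for the genotype comparisons). Leaving out retinas with lens markers over 500 CPM or surface epithelium markers over 10 CPM, leaving out single day 2 PBS retinas, and the tests of sex by treatment were added after the data had been seen. The script was tested on simulated counts. All 10 genes were described, in order of role, with the 2 partner genes of each pathway list of lowest adjusted p after IL1A+TNF and the 3 genes of highest Pearson correlation among genes over 1 CPM on average. The genes, marker lists and partner lists were chosen with earlier results of these data known. Among the genes nearest to Clcf1, 1 is not reported here.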

Additional observations from a re-analysis of the deposited data

Results flagged for a closer look

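In groups of 4 to 10 retinas, single retinas stood apart from the others of their group by Dixon's criterion in 17 of 110 pairs of gene and group. The limits of the criterion give such a retina in about 1 of 20 groups if values are normally distributed. CPM on a linear scale need not be, and the pairs share retinas, so the 17 cannot be set against that rate. Day 2 retinas of the first batch were Clcf1 in IL1A replicate 8 (19.1 CPM), Tgm1 in the same retina (58.1 CPM), Sphk1 in IL1A+TNF replicate 2 (15.5 CPM), Cd109 in IL1A+TNF replicate 10 (3.28 CPM) and Tgm1 in TNF replicate 2 (15.9 CPM), each the highest of its group. In the second batch they were Ptgs2 in WT IL1A+TNF replicate 5 (13.9 CPM), Emp1 in WT PBS replicate 2 (33.4 CPM), Cd109 in Sarm1-/- PBS replicate 4 (3.37 CPM), Tm4sf1 in Sarm1-/- PBS replicate 1 (11.8 CPM) and Slc10a6 in Sarm1-/- IL1A+TNF replicate 5 (0.758 CPM), again the highest. At day 14 they were Tgm1 in PBS replicate 2 (11.7 CPM), Emp1 in PBS replicate 7 (31.3 CPM) and Cd109 in TNF replicate 4 (1.41 CPM), while Tm4sf1 in PBS replicate 5 was the lowest of its group (1.498 CPM). At day 35 they were Emp1 in TNF replicate 3 (8.51 CPM), Slc10a6 in PBS replicate 1 (0.141 CPM) and Slc10a6 in TNF replicate 5 (0.0540 CPM).

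Of effects that differed between groups, Sphk1 rose after IL1A+TNF by 0.72 on the log2 scale more than the sum of its changes after IL1A and after TNF. In Sarm1-/- retinas, the effect of IL1A+TNF was larger in females than in males by 3.16 for Clcf1, 1.72 for Ptx3, 2.28 for Ptgs2, 1.78 for Sphk1, 1.86 for Tgm1, 1.72 for S100a10, 1.98 for Emp1, 1.68 for Tm4sf1 and 2.54 for Slc10a6, all on the log2 scale and called in limma. This comparison was chosen after the values had been seen and holds 3 retinas per sex and treatment.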

How the results depend on the processing

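Of 3763 fold changes recomputed under an alternative, 3632 kept their side of the threshold (86 of them, called in neither fit, changed sign), 92 lost a call, 39 gained one and none that was called turned its direction. With mouse as a fixed factor (replicate block), where 9 of the genes could be tested, IL1A called 3 genes (7 in the fit reported) and IL1A+TNF in Sarm1-/- called 0 (9 reported). IL1A against TNF called 1 gene with no filter and 1 with no sex term (4 reported). The test of more than the sum of both cytokines called 2 with DESeq2 and 2 in the joint fit (1 reported). PBS at day 14 against day 2 called 5 with DESeq2 (3 reported), day 35 against day 2 called 2 without the retinas rich in lens or surface epithelium markers (5 reported), and day 35 against day 14 called 1 with edgeR and 1 with DESeq2 (0 reported). IL1A+TNF in WT called 2 in batch 2 alone (10 reported). Sarm1-/- against WT with IL1A+TNF called 1 with no filter, 0 in batch 2 alone and 0 without the marker-rich retinas (2 reported), and genotype by treatment called 1 with DESeq2 (0 reported). Batch 2 alone and the runs without marker-rich retinas hold fewer retinas, and the cause was not tested for any of these settings. With 1 retina left out at a time, the genes called ranged from 10 to 10 for IL1A+TNF, 5 to 8 for IL1A and 0 to 1 for TNF at day 2 (1 without TNF replicate 6). They ranged from 6 to 9 for IL1A+TNF in Sarm1-/-, 10 to 10 in WT of both batches, 0 to 0 for Sarm1-/- against WT with PBS, 0 to 4 with IL1A+TNF (0 without Sarm1-/- IL1A+TNF replicate 4 or 5 and 4 without replicate 6, beside 2 reported) and 0 to 1 for genotype by treatment (1 without replicate 1, 2 or 6 of that group). These genotype ranges come from 17 fits that left out the WT PBS and Sarm1-/- retinas of batch 2, so no WT retina given IL1A+TNF and none of batch 1 was left out for them. No single-retina runs were made for days 14 and 35. Slc10a6, at 0 to 37 counts per retina, was limited by depth.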
